A study of Mus musculus with 14 samples.

Results

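Microglia of 3 mouse retinas injected with microbeads were compared with microglia of 3 retinas contralateral to such an injection. These 6 libraries, of 14 in the series, were taken by their titles, which number each group 1 to 3. All came from wild type C57BL/6 mice at 12 weeks, and the microbead libraries are described as glaucoma. The remaining libraries, 4 from sham-injected and 4 from naive retinas, are used below as reference levels and to estimate the spread between libraries. Cells were sorted as CD11b+, Ly6c- and Fcrls+, and each retina gave 100 to 600 of them, which is a small input for RNA sequencing. The labels do not say whether equal numbers mark the 2 eyes of a mouse, nor that the retinas of a group came from different mice, so the p-values measure only the spread between these libraries. No eye pressure, time after injection or count of ganglion cells is given in the sources used here. Fewer cells of a type and less RNA per cell cannot be told apart in such sorted bulk samples.

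Retinal microglia are tissue macrophages that survey the plexiform layers, prune synapses and clear debris. In the healthy retina they express a homeostatic program that depends on TGF-beta and CSF1R signalling. Near dying neurons they can switch to a neurodegenerative state, named MGnD in the title of the series, in which TREM2 and APOE signalling raise genes of lipid handling and lysosomes while homeostatic genes go down. Glaucoma is a disease of the retinal ganglion cells and their axons. Beads injected into the front of the eye are used to block the outflow of fluid and raise eye pressure, and the contralateral eye serves as an untreated control that shares the animal's circulation.

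The libraries held between 1.34 and 14 M reads assigned to genes. Microbead 1 held 1.34 M and microbead 2 and 3 held 10.7 and 13.9 M, against 6.03, 7.60 and 14 M in contralateral 1 to 3. Microbead 1 and contralateral 2 stood apart from the rest: reads were found in 10167 and 10306 genes there, and in 13472 to 16531 genes in the other 12 libraries. Rank correlations (Spearman) within a group were 0.637 to 0.777 in microbead and contralateral and 0.784 to 0.885 in sham and naive libraries. The spread was estimated over all groups together, so SEs and p-values may understate the spread of the 6 compared libraries. Short transcripts were over-represented in the microbead libraries. The median log2 level of 824 genes of at most 1000 bases minus that of 1344 genes over 4000 bases, each relative to the naive mean, was 1.91, 0.79 and 1.24 in microbead and 0.44, 0.96 and -0.24 in contralateral libraries. These ranges overlapped (exact permutation test, two-sided, p = 0.2, where 3 against 3 cannot go below 0.1). Of the genes behind the sort, Itgam (CD11b) and Fcrls were read in all 6 libraries at overlapping levels, whereas the Ly6c genes Ly6c1 and Ly6c2 had no reads.

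Of 14279 genes tested, 4 (0.028%) had a Benjamini-Hochberg adjusted p under 0.05 by the quasi-likelihood F test of edgeR. The genes mt-Co2, mt-Rnr2 and Apoe rose in microbead retinas (0.021%) and Stab1 fell (0.007%). For none of the 4 did the groups overlap. The number of calls depended on which libraries were used. Without contralateral 2, no gene passed in edgeR, where 1435 had an unadjusted p under 0.05, and the log2 fold changes were 3.94 for mt-Co2, 2.49 for Apoe, 2.18 for mt-Rnr2 and -1.63 for Stab1. Leaving out any other of the 6 libraries gave between 7 genes (without microbead 1) and 162 (without microbead 3). With the length trend removed from each library, again no gene passed in edgeR (1810 at an unadjusted p under 0.05). DESeq2's Wald test on the same counts called 666 genes, the 4 among them.

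**Figure D1:**
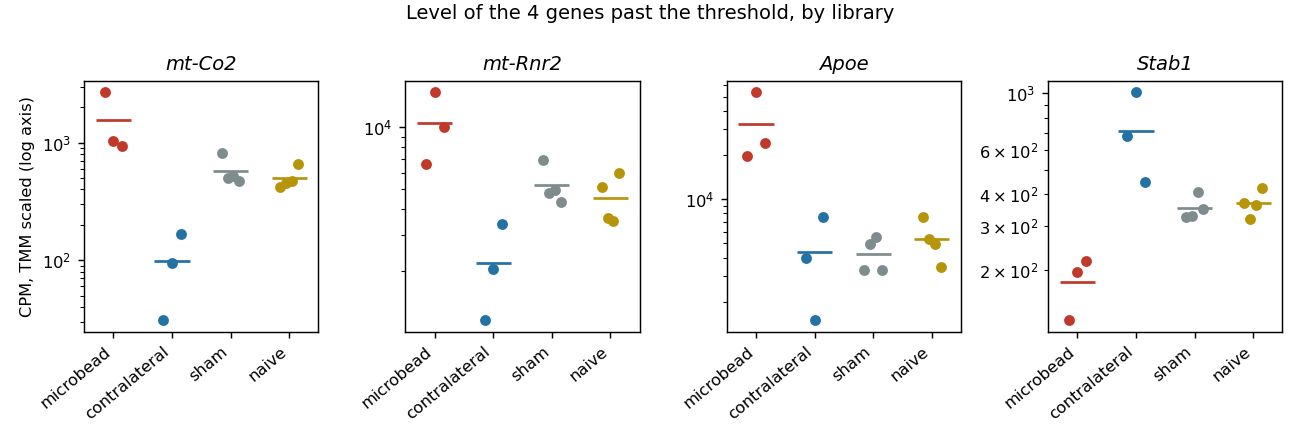
Levels of mt-Co2, mt-Rnr2, Apoe and Stab1 in CPM (reads scaled to library size, log axis), with 1 point per library and a bar at each group's mean for the microbead, contralateral, sham and naive groups. The 3 microbead points lie above all 3 contralateral points in the panels of mt-Co2, mt-Rnr2 and Apoe and below them in that of Stab1.

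The gene mt-Co2 encodes subunit 2 of cytochrome c oxidase, the last complex of the respiratory chain, and lies on the mitochondrial genome (chrM:7013-7696, + strand, mm10). In CPM, that is reads scaled to library size by TMM factors, it stood at 2683, 1035 and 939 in microbead 1 to 3 and at 30.8, 94.8 and 167 CPM in contralateral 1 to 3. All contralateral libraries were also below the 577 ± 158 CPM of sham (SD, n = 4) and the 504 ± 110 CPM of naive retinas (SD, n = 4), and all microbead libraries were above these means. Its log2 fold change was 3.99 (SE 0.53, edgeR adjusted p = 0.00756). The mitochondrial large ribosomal RNA mt-Rnr2 (chrM:1094-2675, + strand) was at 6637, 14720 and 10031 CPM in microbead and at 1158, 2041 and 3403 CPM in contralateral libraries, with means for sham of 5253 ± 1130 and for naive of 4551 ± 1196 CPM (SD, n = 4 each). Again the means of sham and naive lay between the 2 groups, but sham 1 (6906 CPM) was above microbead 1. Neither mt-Co2 nor mt-Rnr2 passed in microbead against sham (edgeR adjusted p = 0.250 and 0.299). The same held for contralateral against sham (edgeR adjusted p = 0.637 and 0.963). The log2 fold change of mt-Rnr2 in microbead against contralateral was 2.25 (SE 0.36, edgeR adjusted p = 0.0358).

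The rest of the mitochondrial genome showed the same order of groups. Of its 13 protein-coding transcripts, all tested, 1 passed the adjusted threshold and 11 had an unadjusted p under 0.05, all higher in microbead. Over all genes tested 4.89% were higher and 6.66% lower at that unadjusted p. In 9 of the 13, every microbead library lay above every contralateral library, against 5.2% of all genes tested (5.64% lay the other way). The median log2 fold change of the 13 was 2.59, beside -0.08 over all genes. Among them mt-Atp6, a subunit of ATP synthase, was at 1349, 1658 and 1121 CPM in microbead and 90.5, 124 and 470 CPM in contralateral libraries (2.59, SE 0.48, edgeR adjusted p = 0.0633). The complex I subunit mt-Nd2 was at 312, 196 and 148 CPM against 20.3, 12.5 and 75.1 CPM (2.60, SE 0.54, edgeR adjusted p = 0.076). The small ribosomal RNA mt-Rnr1, which is not among the 13, was at 187, 180 and 76.2 CPM against 19.8, 10.6 and 23.3 CPM. The groups did not overlap in any of these, though none passed the adjusted threshold.

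Reads of all mitochondrial genes made up 1.53, 2.12 and 1.48% of microbead libraries and 0.164, 0.261 and 0.786% of contralateral libraries. Wilson 95% intervals, which cover counting error only, were at most 0.0208 percentage points to each side. Sham libraries held 1.00 to 1.51% and naive libraries 0.871 to 1.16%. The contralateral libraries were thus the lowest of the 14, while sham 1 was above microbead 3. The exact permutation test of microbead against contralateral gave p = 0.1, two-sided, the smallest that 3 against 3 allow. For the 13 transcripts the median log2 fold change was 0.92 in microbead against sham and -1.66 in contralateral against sham, with 0.98 and -1.37 against naive. These comparisons share their libraries with the main one, and over all genes their medians lay between -0.14 and -0.04. With the length trend removed the median of the 13 was 1.69, and without microbead 1 and contralateral 2 it was 1.85.

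**Figure D2:**
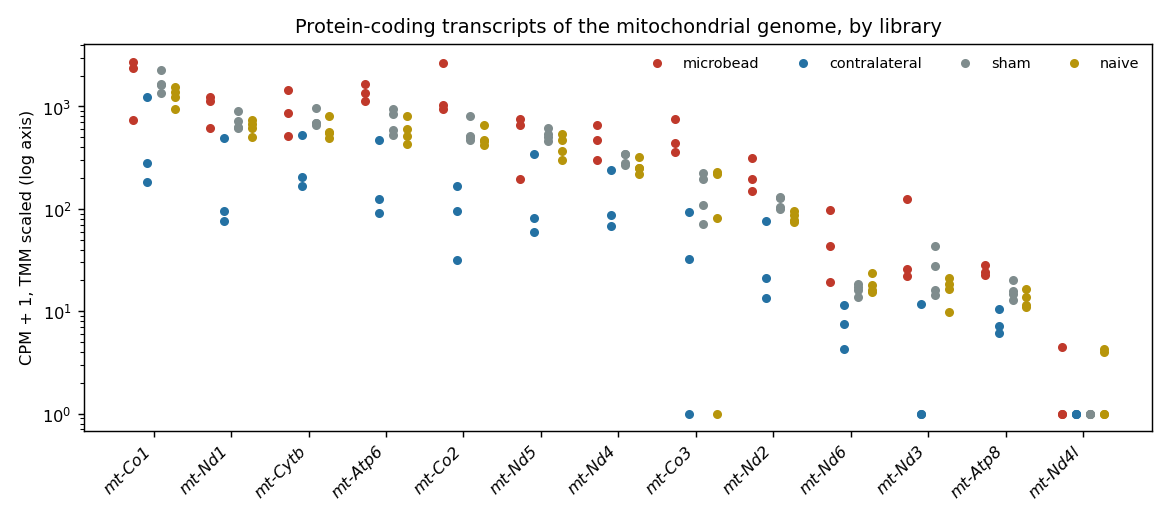
Levels of the 13 protein-coding mitochondrial transcripts in CPM + 1 (log axis), with 1 point per library, coloured by group and ordered by the naive mean. In mt-Co2 and 8 other transcripts the microbead points lie above all contralateral points, and sham and naive points lie mostly between them.

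Nuclear copies of the mitochondrial genome complicate these counts. The pseudogene Gm28661 (chr1:24614885-24615565, - strand, mm10) carries the whole of its 681 bases without a mismatch to mt-Co2, so reads from either place cannot be told apart. A stretch from base 301 to base 360 of each is shown, because identical letters decide how the authors' software had to divide the reads. It is read from the GENCODE M21 transcripts, with no base in capitals because none differs.
mt-Co2: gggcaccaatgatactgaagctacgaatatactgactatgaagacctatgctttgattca
Gm28661: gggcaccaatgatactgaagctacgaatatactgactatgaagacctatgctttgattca
Gm28661 was given 0, 15.6 and 131 CPM in microbead and 43.4, 47.3 and 185 CPM in contralateral libraries. When each mitochondrial transcript was summed with its near-identical copies, a setting chosen after seeing the data, mt-Co2 was at 2685, 1052 and 1072 CPM against 74.3, 142 and 352 CPM. Its log2 fold change was then 3.08 (SE 0.49, edgeR adjusted p = 0.0277). In that setting mt-Co3, named here after its values were seen, passed as well (3.32, SE 0.54, edgeR adjusted p = 0.0277). Its copy Gm28437 was given a large part of these reads, with 3772, 1163 and 782 CPM in microbead and 87.8, 80.2 and 433 CPM in contralateral libraries. No near-identical copy of mt-Rnr2, Apoe or Stab1 was found.

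Apoe encodes apolipoprotein E, a lipid carrier and a hallmark of the MGnD state (chr7:19696109-19699188, - strand). It was at 19622, 53582 and 24312 CPM in microbead and at 3947, 1494 and 7555 CPM in contralateral libraries. The lowest microbead library was above the highest contralateral one, and the contralateral libraries spanned the means of sham (4262 ± 1168 CPM, SD, n = 4) and naive (5350 ± 1697 CPM, SD, n = 4). The log2 fold change was 2.91 (SE 0.49, edgeR adjusted p = 0.0400), or 7.50-fold. Against sham it was 2.93 in microbead and 0.02 in contralateral retinas. Without microbead 1 and contralateral 2, Apoe stayed past the threshold (2.75, edgeR adjusted p = 0.0342), which the other 3 genes did not. Apoe is also a marker of Muller glia and astrocytes, whose other 15 listed markers summed to 314 to 455 CPM in microbead and 326 to 697 CPM in contralateral libraries. Gfap, Clu, Sox9, Dkk3, Crym and S100b were at 0 in all 6. Rlbp1 was at 0, 31.0 and 0.088 CPM in microbead and had no reads in contralateral libraries. Of 8 markers of this list tested, Apoe among them, 3 (37.5%) were higher and 1 (12.5%) lower at an unadjusted p under 0.05. Over all genes these shares were 4.89% and 6.66%. The part of such cells in the Apoe level was not tested.

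Stab1 encodes stabilin-1, a scavenger receptor of macrophages (chr14:31139013-31168641, - strand). It was at 127, 197 and 217 CPM in microbead and at 681, 1009 and 446 CPM in contralateral libraries. Sham (353 ± 39.4 CPM, SD, n = 4) and naive retinas (369 ± 43.2 CPM, SD, n = 4) lay between the groups. The log2 fold change was -1.98 (SE 0.32, edgeR adjusted p = 0.0358). On the authors' FPKM, which divide by a transcript length estimated in each library, the groups overlapped: 180, 246 and 87.4 FPKM in microbead and 382, 231 and 234 FPKM in contralateral libraries, with lengths of 970, 941 and 2318 bases against 1805, 3910 and 2426 bases. On the log2(FPKM + 1) scale the difference was -0.80 and did not pass in limma (adjusted p = 0.366).

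The 250 bases before the start of both nuclear genes are shown, since these 2 promoters belong to the nuclear genes whose level passed the test (RefSeq, GRCm38.p6; chr7:19699189-19699438 and chr14:31168642-31168891, both on the - strand and written 5′ to 3′). They were searched on both strands for an interferon-stimulated response element (ISRE, a pair of TTTC words with 2 bases between them), the gamma-activated site (GAS, TTCNNNGAA), the cAMP response element (TGACGTCA), AP-1 (TGANTCA), the E-box (CACGTG) and the NF-kB motif, in a window that also took in the 50 bases after the start. No match was found in these windows, so no base is in capitals.
Apoe: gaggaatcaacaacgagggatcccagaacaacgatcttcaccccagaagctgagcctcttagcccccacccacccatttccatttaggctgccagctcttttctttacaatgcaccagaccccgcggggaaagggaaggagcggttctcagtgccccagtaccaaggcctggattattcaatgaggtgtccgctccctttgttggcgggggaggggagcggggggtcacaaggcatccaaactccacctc
Stab1: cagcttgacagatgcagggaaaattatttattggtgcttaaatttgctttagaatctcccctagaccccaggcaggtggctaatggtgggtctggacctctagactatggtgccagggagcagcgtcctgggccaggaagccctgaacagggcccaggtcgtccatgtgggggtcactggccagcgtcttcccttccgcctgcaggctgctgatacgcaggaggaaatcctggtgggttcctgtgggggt

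A further group of genes missed the threshold narrowly, and those with the smallest p are given here. Above the contralateral libraries stood C4b, a complement component that tags targets for uptake, at 939, 930 and 459 CPM against 3.80, 51.4 and 42.1 CPM (log2 fold change 4.58, SE 0.90, edgeR adjusted p = 0.0633). No overlap was seen, and sham was at 43.2 ± 37.4 CPM (SD, n = 4). Wfdc17, which encodes a small secreted protein, was at 139, 132 and 51.5 CPM in microbead libraries and had no reads in any contralateral library. With a floor of 3 reads over the contralateral group, which covers counting error only, this is at least 974-fold higher (edgeR adjusted p = 0.0633). Sham was at 11.2 ± 11.3 and naive at 0.937 ± 1.77 CPM of Wfdc17 (SD, n = 4 each). Microbead against sham gave a log2 fold change of 3.25 (SE 1.33, edgeR adjusted p = 0.456). The chemokine Ccl12 was at 4599.7, 485 and 1725 CPM against 328, 265 and 194 CPM (3.11, SE 0.62, edgeR adjusted p = 0.0633). Here microbead 1 was far above the other 2, and the log2 fold change was 1.75 with the length trend removed. Tmsb4x, which encodes an actin-binding thymosin, was at 6284, 1691 and 2099 CPM against 915, 967 and 921 CPM (1.85, SE 0.36, edgeR adjusted p = 0.0633), and 1.04 with the trend removed.

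Below the contralateral libraries stood Elmo1, part of the engulfment machinery that activates Rac, at 151, 262 and 340 CPM against 703, 1394 and 748 CPM (-1.91, SE 0.34, edgeR adjusted p = 0.0633). Cyfip1, a member of the WAVE complex, was at 371, 382 and 264 CPM against 812, 850 and 786 CPM (-1.27, SE 0.25), again without overlap. Srgap2, a Rac-directed GTPase-activating protein, was at 423, 368 and 435 CPM against 1069, 1115 and 682 CPM (-1.22, SE 0.26). The exocyst subunit Exoc6b was at 16.5, 4.57 and 5.01 CPM against 85.2, 79.0 and 80.3 CPM (-3.29, SE 0.65). Without microbead 1 and contralateral 2 it passed the threshold (-4.11, edgeR adjusted p = 0.0280). Tacc1, Plxdc2 and Wdr48 also had groups that did not overlap, with log2 fold changes of -1.69, -1.58 and -5.17. Pcdhga9 had no reads in microbead and 28.0, 13.1 and 13.4 CPM in contralateral libraries, at least 131-fold lower, but the genes of the gamma-protocadherin cluster share their last exons, so that this assignment is uncertain.

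Genes of the neurodegenerative program were more often above than below the contralateral level. Of 34 genes of the MGnD list, all tested, 1 (Apoe) passed the adjusted threshold. At an unadjusted p under 0.05, 16 (47.1%) were higher in microbead and none was lower, beside 4.89% and 6.66% of all genes. In 13 of the 34 (38.2%) every microbead library was above every contralateral library, beside 5.2% of all genes. The median log2 fold change was 1.14, against -0.08 over all genes, 0.81 with the length trend removed and 1.17 without microbead 1 and contralateral 2. Against sham the median was 0.93 in microbead and -0.08 in contralateral libraries, and against naive it was 1.69 and 0.23.

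Among MGnD genes with low contralateral levels, Lgals3, which encodes galectin-3, was at 111, 111 and 184 CPM in microbead and at 0, 0.946 and 4.41 CPM in contralateral libraries (log2 fold change 6.17, SE 2.42). Gpnmb, a glycoprotein of lysosomes, was at 14.4, 106 and 516 CPM against 0, 2.21 and 0 CPM (8.23, SE 2.29). Most of its microbead level thus rests on microbead 3. The cathepsin inhibitor Cst7 was at 94.1, 124 and 58.0 CPM against 10.8, 0 and 24.2 CPM (2.97, SE 1.32). Itgax, which encodes CD11c, was at 24.4, 118 and 46.4 CPM against 22.2, 0 and 7.61 CPM (2.67, SE 1.23). Sham libraries held 43.1 ± 16.5 CPM of Itgax and 14.6 ± 11.5 CPM of Cst7 (SD, n = 4 each), and naive libraries 13.7 ± 13.5 and 12.8 ± 8.82 CPM (SD, n = 4 each), so that for Itgax sham and microbead overlapped. None of these 4 genes overlapped between microbead and contralateral libraries, and none passed the adjusted threshold. Spp1, the gene of osteopontin, had 62.7 CPM in microbead 2 and no reads in the other 5 libraries.

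Other members of the list had higher contralateral levels. Cd63, a tetraspanin of endosomes and lysosomes, was at 664, 902 and 811 CPM against 168, 507 and 242 CPM (1.37, SE 0.34, edgeR adjusted p = 0.116), and without microbead 1 and contralateral 2 it passed the threshold (2.05, edgeR adjusted p = 0.0280). The surface glycoprotein Cd52 was at 829, 290 and 261 CPM against 204, 87.8 and 79.8 CPM (1.89, SE 0.45). The coreceptor Cd72, which is not on the list, was at 211, 405 and 638 CPM against 53.8, 155 and 108 CPM (1.98, SE 0.44, edgeR adjusted p = 0.0839). It too passed without those 2 libraries (2.67, edgeR adjusted p = 0.0342). No such separation was seen for Trem2, Tyrobp, Axl and Clec7a. Trem2 was at 1629, 2038 and 2278 CPM against 2524, 2858 and 1357 CPM (-0.18, SE 0.25), its adaptor Tyrobp had a log2 fold change of 0.70 (SE 0.34), and the receptors Axl and Clec7a had 0.05 (SE 0.44) and 0.81 (SE 0.68). All 4 overlapped between groups. The sign of Trem2, Tyrobp and Axl turned under some alternatives, among them the removal of the length trend for Tyrobp and Axl.

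**Figure D3:**
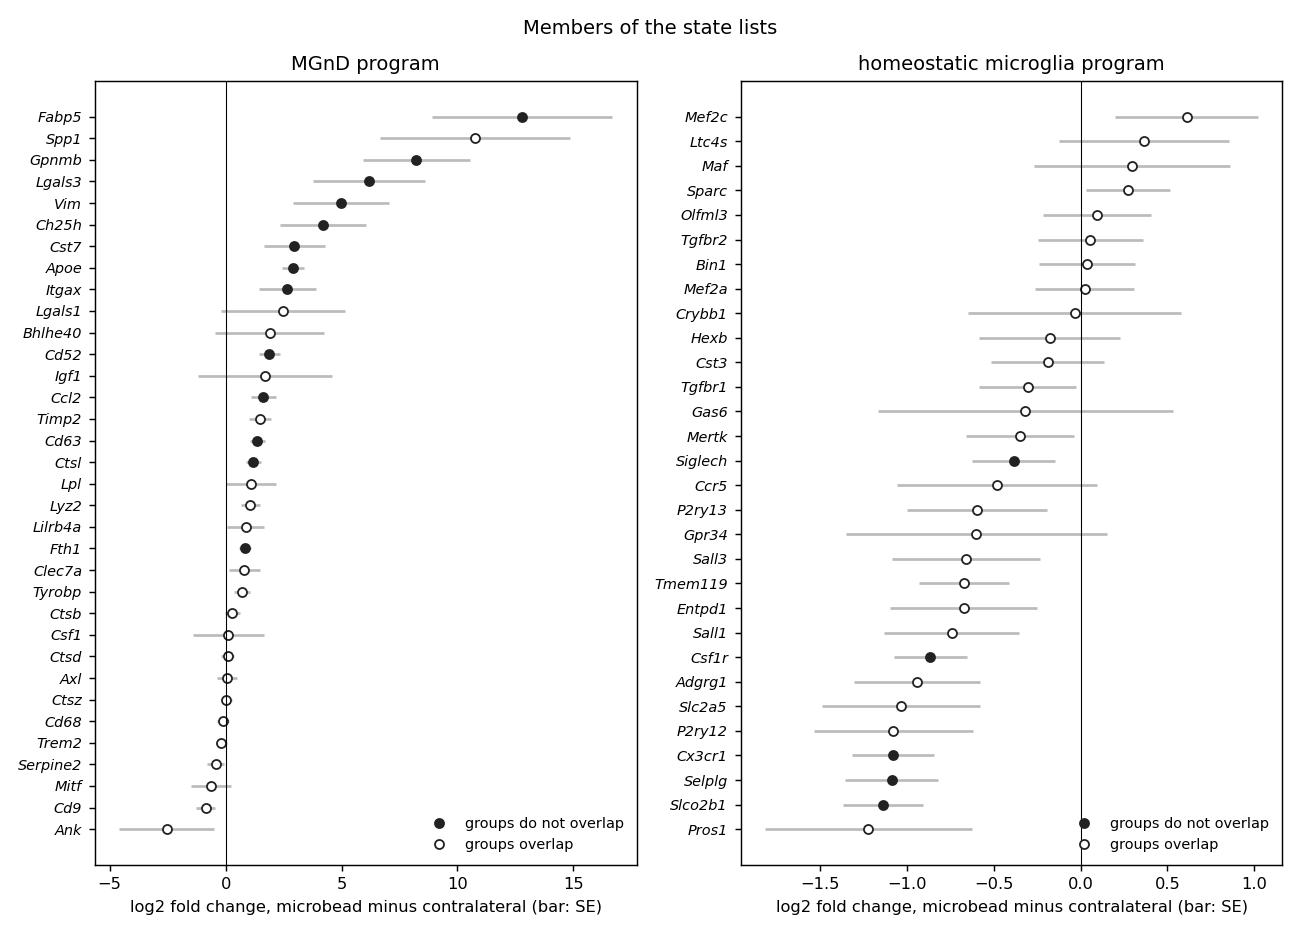
Log2 fold change of microbead minus contralateral for each tested gene of the MGnD (left) and homeostatic lists (right), with bars of 1 SE; filled points are genes whose groups do not overlap. Filled MGnD points, 13 of 34, all lie above 0, and filled homeostatic points, 5 of 30, all lie below 0.

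Homeostatic genes were more often below than above the contralateral level. Of 30 on the list, all tested, 22 had a log2 fold change under 0 and 8 one above 0. None passed the adjusted threshold in the main edgeR fit. At an unadjusted p under 0.05, 8 (26.7%) were lower in microbead and none was higher, beside 6.66% and 4.89% of all genes. In 5 (16.7%) all microbead libraries lay below all contralateral ones, beside 5.64% of all genes. The median log2 fold change was -0.43, -0.62 with the length trend removed and -0.45 without microbead 1 and contralateral 2. The fractalkine receptor Cx3cr1 was at 2264, 2106 and 3626 CPM in microbead and 5363, 5462 and 6072 CPM in contralateral libraries (-1.08, SE 0.23, edgeR adjusted p = 0.076). The survival receptor Csf1r was at 4326, 3028 and 3710.2 CPM against 6128, 6804 and 7211 CPM (-0.86, SE 0.21). The transporter Slco2b1 was at 683, 907 and 927 CPM against 1709.9, 2307 and 1514 CPM (-1.14, SE 0.23, edgeR adjusted p = 0.0645). In these 3 genes the groups did not overlap. For Cx3cr1 and Csf1r the sham means, 5356 ± 465 and 6495 ± 661 CPM (SD, n = 4), lay within or near the contralateral range. Their naive means, 4505 ± 823 and 5789 ± 961 CPM (SD, n = 4), lay between the groups, and naive 1 had less Cx3cr1 (3456 CPM) than microbead 3. For Slco2b1 the sham mean of 1294 ± 47.5 CPM (SD, n = 4) lay between the groups.

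Other markers of resting microglia overlapped. The purinergic receptor P2ry12 was at 251, 577 and 1229.7 CPM in microbead and 628, 1424 and 2295 CPM in contralateral libraries, where contralateral 1 was close to microbead 2. Tmem119 was at 1209, 1565 and 2671 CPM against 2639.5, 3302 and 2741 CPM, and the transcription factor Sall1 at 162, 299 and 390 CPM against 792, 261 and 369 CPM. Their log2 fold changes were -1.08 (SE 0.46), -0.67 (SE 0.26) and -0.74 (SE 0.39), with edgeR adjusted p-values of 0.39, 0.343 and 0.473. Sirpa, an inhibitory receptor that restrains phagocytosis and is not on the list, was at 274, 688 and 536 CPM against 1113, 1138 and 1370.4 CPM without overlap (-1.27, SE 0.30, edgeR adjusted p = 0.103). Of 16 tested genes of TGF-beta signalling, 3 (18.8%) were lower at an unadjusted p under 0.05 and 1 (6.25%) was higher. Over all genes these shares were 6.66% and 4.89%. The median was -0.32, beside -0.08 over all genes. The lower ones named by rule were the coreceptor Eng (-1.42, SE 0.48) and the effector Smad3 (-1.67, SE 0.60), and the higher one was the target gene Id2 (2.21, SE 0.49).

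Genes of antigen presentation and of the interferon response were described by 3 lists, whose counts at an unadjusted p under 0.05 stand beside 4.89% of all genes higher and 6.66% lower. Of 21 genes of MHC class I and peptide loading, 2 (9.52%) were higher and 1 (4.76%) lower, and the median was 0.59 (0.29 with the length trend removed). B2m, the light chain of class I molecules, was at 3735, 2753 and 3142 CPM in microbead and 683, 1377 and 1755 CPM in contralateral libraries (1.34, SE 0.28, edgeR adjusted p = 0.0745). These groups did not overlap, whereas those of the heavy chain gene H2-D1 did (0.77, SE 0.27). The peptide transporter Tap2 lay below the contralateral libraries, at 31.6, 70.9 and 80.05 CPM against 315, 262 and 115 CPM (-1.91, SE 0.47). Of 15 genes of MHC class II presentation, 3 were higher and none lower, with a median of 0.59. The thiol reductase Ifi30 led them, at 1308, 587 and 626 CPM against 369, 180 and 143 CPM (1.86, SE 0.41). Of 34 interferon response genes, 3 (8.82%) were higher and none lower, with a median of 0.48. Ifitm3, which blocks viral entry, was at 437, 284 and 94.2 CPM against 36.7, 26.8 and 79.8 CPM without overlap (2.50, SE 0.54, edgeR adjusted p = 0.076). No gene of these 3 lists passed the adjusted threshold.

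Motif matches were counted in the promoters of these lists. The ISRE was found in 15 of 32 RefSeq promoters of interferon genes (46.9%) and in 5 of 21 of the class I genes (23.8%), against 3.44% of all 32851 promoters in the table. The NF-kB motif was found in 9 of the 21 class I promoters (42.9%), against 4.51% of all. The promoter of B2m is printed because it holds both and B2m had the smallest p of these lists (RefSeq, GRCm38.p6, chr2:122147437-122147686, + strand). Capitals mark the ISRE match GAAACTGAAA, which starts 139 bases before the start site, and the NF-kB match GGAAAGTCCC, which starts 126 bases before it.
B2m: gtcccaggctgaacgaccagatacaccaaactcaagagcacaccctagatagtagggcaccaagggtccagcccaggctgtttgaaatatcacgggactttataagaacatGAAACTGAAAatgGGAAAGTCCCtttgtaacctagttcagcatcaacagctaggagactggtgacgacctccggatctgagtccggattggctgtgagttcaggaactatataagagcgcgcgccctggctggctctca

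Fc receptors, which bind antibody-coated targets, and complement genes were more often higher than lower in microbead libraries. Of 7 Fc receptor genes, 4 (57.1%) were higher at an unadjusted p under 0.05 and none lower, beside 4.89% and 6.66% of all genes, with a median of 0.86 (0.61 with the length trend removed). The high-affinity IgG receptor Fcgr1 was at 819, 700 and 844 CPM in microbead and 486, 270 and 334 CPM in contralateral libraries (1.12, SE 0.28), and Fcgr4 was at 177, 176 and 280 CPM against 41.1, 75.5 and 92.1 CPM (1.60, SE 0.41). Neither overlapped, and their edgeR adjusted p-values were 0.116 and 0.12. The shared signalling chain Fcer1g had a log2 fold change of 1.34 (SE 0.34), which was 0.38 with the length trend removed. Of 14 complement genes tested, C4b and the anaphylatoxin receptor C3ar1 were higher at an unadjusted p under 0.05 and none was lower. C3ar1 was at 434, 511 and 471 CPM against 187, 213 and 358 CPM (0.90, SE 0.30), and C1qc, a chain of C1q, overlapped (0.54, SE 0.35).

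Of 36 genes of phagocytosis and lysosomes tested, 7 (19.4%) were higher and 1 (2.78%) lower at an unadjusted p under 0.05. Their median was 0.13, beside -0.08 over all genes. The protease Ctsh was at 1597, 1529 and 2124 CPM against 801, 1018 and 907 CPM (0.95, SE 0.22), without overlap. Of 14 chemokine genes tested, 4 (28.6%) were higher and none lower at that unadjusted p, and 6 (42.9%) had microbead libraries above all contralateral ones, beside 4.89%, 6.66% and 5.2% of all genes, with a median of 1.02 (0.56 with the length trend removed). The monocyte attractant Ccl2 was at 480, 309 and 539 CPM against 77.0, 267 and 86.9 CPM (1.62, SE 0.53), and Ccl5 at 103, 58.7 and 73.5 CPM against 12.7, 0 and 18.4 CPM (2.91, SE 1.22). Of 24 inflammatory genes tested, 3 (12.5%) were higher and none lower at that unadjusted p, with a median of 0.27, which was -0.03 with the length trend removed. The NF-kB inhibitor Nfkbia was at 1169.8, 743 and 1089 CPM against 628, 323 and 280 CPM (1.29, SE 0.32). The cytokine Il1b was at 158, 64.9 and 61.7 CPM in microbead and at 0, 0 and 7.16 CPM in contralateral libraries (5.25, SE 1.73, edgeR adjusted p = 0.256). Apart from these, 22 genes of lipid handling were tested, 5 higher and 2 lower at that unadjusted p, with a median of 0.14. Beside Apoe they include the cholesterol exporter of lysosomes Npc2 (1.03, SE 0.26), whose groups did not overlap, and the lipoprotein receptor Lrp1 (-1.27, SE 0.38), whose groups did.

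Genes of the protein synthesis machinery stood higher in microbead libraries together. Of 78 cytosolic ribosomal protein genes tested, 64 (82.1%) were higher at an unadjusted p under 0.05 and none was lower. Over all genes these shares were 4.89% and 6.66%. In 48 (61.5%) every microbead library lay above every contralateral library, beside 5.2% of all genes. No member passed the adjusted threshold in the main edgeR fit. Some passed in alternatives, among them Rpl23 without microbead 3 (edgeR adjusted p = 0.010). Their median log2 fold change was 1.303, and it was 0.37 with the length trend removed, beside -0.18 over all genes in that setting. There 14 of the 78 were higher at an unadjusted p under 0.05 and none lower, beside 4.39% and 8.28% of all genes. The median length of these genes was 673 bases. Rpl23 was at 916, 451 and 298 CPM in microbead and 109, 174 and 121 CPM in contralateral libraries (2.04, SE 0.39, edgeR adjusted p = 0.0633), and 1.33 with the trend removed. Ribosomal proteins have many processed pseudogenes, so their single values are uncertain. The nuclear genes of the respiratory chain, also short, had a similar pattern. Of 77 tested, 29 were higher and 1 lower at an unadjusted p under 0.05, and their median was 0.92. With the trend removed the median was 0.10, and 3 were higher and 1 lower at that p, beside 4.39% and 8.28% of all genes. The cytochrome c oxidase subunit Cox8a, for example, was at 860, 231 and 248 CPM against 150, 80.2 and 100 CPM (2.02, SE 0.46), and 0.74 with the trend removed. The part of transcript length in these differences was not tested beyond this removal.

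**Figure D4:**
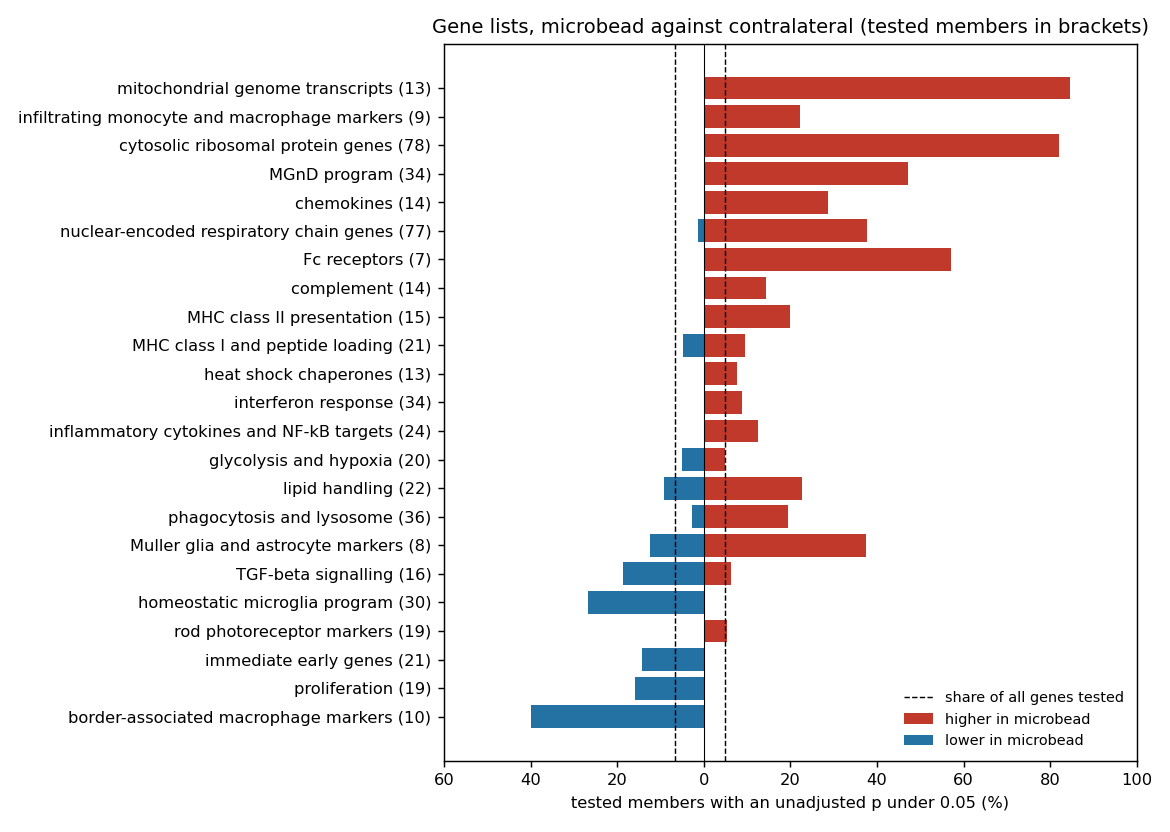
Share of the tested members of each list with an unadjusted p under 0.05 (%), higher in microbead to the right and lower to the left, for the 23 lists with at least 5 tested members, ordered by median log2 fold change. Dashed lines mark the shares over all genes tested, 4.89% and 6.66%; mitochondrial and ribosomal protein genes have the longest bars to the right and border-associated macrophage markers the longest to the left.

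In the lists of acute stress and growth no gene passed the adjusted threshold. Of 21 immediate early genes, which respond within minutes to stimulation and to cell isolation, 3 were lower at an unadjusted p under 0.05 and none higher, with a median of -0.53. The phosphatase Dusp1 was at 637, 726 and 1793 CPM against 2062, 2990.4 and 1635 CPM, where microbead 3 overlapped with contralateral 3 (-1.08, SE 0.39). Of 13 heat shock chaperones 1 was higher at that p (Hspa5, 0.63, SE 0.26), and of 20 genes of glycolysis and hypoxia 1 was higher and 1 lower. These were the hexokinase Hk2 (1.505, SE 0.52) and the regulator of phosphofructokinase Pfkfb3 (-1.57, SE 0.44). Of 19 proliferation genes tested, 3 were lower and none higher at that p, beside 6.66% and 4.89% of all genes, with a median of -0.60. The replication helicase subunit Mcm2 had no reads in microbead and 22.2, 53.0 and 13.1 CPM in contralateral libraries, at least 213-fold lower (edgeR adjusted p = 0.076), while sham was at 10.2 ± 7.50 CPM (SD, n = 4).

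Markers of other cells were read in the same libraries. The 16 markers of infiltrating monocytes and macrophages summed to 143 to 308 CPM in microbead, 15.8 to 80.5 CPM in contralateral, 34.5 to 210.0 CPM in sham and 15.5 to 30.8 CPM in naive libraries. The defining genes Ly6c2, S100a8, S100a9, Chil3 and F10 had no reads in the 6 libraries. The microbead sum included Vim (65.4, 56.4 and 76.2 CPM), which the MGnD list also holds, Fn1 (0, 111 and 38.3 CPM) and S100a4 (0, 21.98 and 31.9 CPM). These markers were higher in the same libraries as the MGnD genes, and their part in that difference was not tested. The 12 markers of border-associated macrophages, among them Stab1, summed to 226 to 381 CPM in microbead and 761 to 1052 CPM in contralateral libraries, with sham at 397 to 629 CPM. Of 10 tested, 4 (40%) were lower at an unadjusted p under 0.05 and none higher, beside 6.66% and 4.89% of all genes. Among the 6 libraries, F13a1 (100.2 CPM) and Cd163 (45.1 CPM) were read almost only in contralateral 3. Without that library the median of the list was 0.60 instead of -2.97. In sham libraries F13a1 was at 23.9 ± 29.7 CPM and Cd163 at 4.67 ± 3.61 CPM (SD, n = 4 each), and the naive means were 7.04 and 0.70 CPM.

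Rod photoreceptor markers, 19 in all, summed to 766 to 5575 CPM in microbead and 3120 to 4769 CPM in contralateral libraries, ranges that overlapped. Sham libraries held 1248 to 2296 CPM of them and naive libraries 536 to 4236 CPM. Of the 19, 1 (5.26%) was higher at an unadjusted p under 0.05, beside 4.89% of all genes. It was Gngt1, at 310, 122 and 24.6 CPM against 29.5, 23.02 and 49.8 CPM. Cone markers overlapped too, at 97.6 to 250 CPM against 62.2 to 270 CPM. Endothelial and pericyte markers summed to 1.93 to 81.4 CPM against 64.3 to 171 CPM, with sham at 5.36 to 19.2 CPM and naive at 13.8 to 92.1 CPM. Neutrophil markers were at most 0.615 CPM in any of the 6 libraries. Of 12 markers of retinal ganglion cells, 11 had no reads, among them Pou4f1, Pou4f2, Slc17a6 and Nefl. The remaining one, Rbpms, was at 8.62, 28.8 and 4.92 CPM in microbead and 0.380, 4.73 and 4.22 CPM in contralateral libraries, without overlap (2.18, SE 1.47, edgeR adjusted p = 0.579), and at 5.27 ± 2.65 CPM in sham (SD, n = 4). Rod transcripts are abundant in the retina, and their part in the differences above was not tested.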

How the data were processed

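Tables from SMART-Seq2 RNA sequencing of 14 libraries of sorted retinal microglia were used, grouped by their labels. The authors deposited, for each library, expected counts (estimated reads per gene, not scaled per the file headers) and FPKM, which the authors scaled to transcript length and depth per the file headers. A deposited table of the series repeats the FPKM. The submitters' processing notes list the build mm10 with DESeq2 1.30.1, R 4.0.3 and Salmon 1.4.0, without roles.

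Expected counts were rounded and analysed with edgeR 4.0.16 in R 4.3.3: filterByExpr (minimum count 10, 14279 genes kept), TMM scaling, and 1 robust quasi-likelihood fit with a coefficient per group over all 14 libraries, which gave 10 residual degrees of freedom. The contrast microbead minus contralateral was tested two-sided with Benjamini-Hochberg adjustment over these genes. Depth was 1.34 to 14 M reads, which are PCR copies without molecular identifiers. SE was derived as log2 fold change over the square root of F. CPM are TMM scaled. A ribosomal RNA gene held 5.22 to 24.2% of reads.

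Genes named are those past the threshold, the 10 smallest p in each direction at a mean of at least 10 CPM, up to 3 per list and a panel of state genes. The comparison, lists and rule were chosen with earlier results of these data known. The 33 lists were described without a test. Alternatives covered scaling, filters, DESeq2 1.42.0, limma 3.58.1 (voom, and log2(FPKM + 1)), the 6 libraries alone, the replicate number as a block, each library left out, the 2 libraries under 12000 genes left out, a lowess length trend removed, the identifiers of the series table alone and, added after seeing the data, near-identical copies (blastn 2.17.0) summed. The fit was tested on simulated data. Names matched GENCODE M21 for 47310 of 47729 identifiers.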

Additional observations from a re-analysis of the deposited data

Results flagged for a closer look

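In 22 tests of a group of 4 libraries, 2 found a library far from the others, and chance alone gives this in about 1 of 20 such tests. In sham retinas the highest library for mt-Co2 was at 812 CPM while its nearest neighbour was at 517 CPM, a gap of 0.867 of the range. In the same group the highest share of mitochondrial reads was 1.51% against 1.09% in the nearest library, a gap of 0.831 of the range. Both values belong to sham 1, and both were below the mean of the microbead libraries. The groups of 3 were not examined in this way.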

How the results depend on the processing

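Against 4 genes past the threshold (3 higher, 1 lower), more passed with no filter on low counts (157, 97 higher and 60 lower), with DESeq2's Wald test (666, 326 and 340), with limma on log2(FPKM + 1) (98, 63 and 35) and without microbead 1 and contralateral 2 together (9, 5 and 4). Fewer passed with limma voom (2, both higher and none of the 4, with 0 lower), in the 6 libraries alone (0, with 474 at an unadjusted p under 0.05, a fit with 4 residual degrees of freedom) and with the length trend removed (0). Leaving out each library gave 0 to 162 genes, 0 to 76 higher and 0 to 86 lower: 0 without contralateral 2, 56 without contralateral 3, 13 without contralateral 1, 7 without microbead 1, 31 without microbead 2 and 162 without microbead 3. The causes were not tested. Where 2 libraries were left in a group, they were assumed to vary like the others.

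With the replicate number as a block 144 of 14279 genes passed (92 higher, 52 lower), the 4 among them. Same-numbered microbead and contralateral libraries had correlations of 0.016, -0.042 and 0.093 in their deviations from the group means. With 3 libraries per group these values cannot decide whether equal numbers mark a shared mouse, which is not known. With the block, 33 of 78 ribosomal protein, 8 of 13 mitochondrial and 5 of 34 MGnD genes passed as higher. So did 2 of 7 Fc receptors and 5 of 36 genes of phagocytosis and lysosomes. Lipid handling had 2 of 22 and MHC class II 2 of 15. The lists of MHC class I, complement, chemokines, inflammatory genes, TGF-beta signalling, Muller glia and the nuclear respiratory chain had 1 each. Apoe is a member of several of these lists. As lower, 5 of 30 homeostatic genes, 1 of 36 of phagocytosis and lysosomes and 1 of 10 border-associated macrophage markers (Stab1) passed. The median over all genes ran from -0.26 without microbead 3 to 0.09 without contralateral 3.

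Of 1875 values for 105 named genes, 1625 kept their sign and side of the threshold, 206 gained and 24 lost the threshold, and 20 in 9 genes turned sign, none of them called. Without microbead 1 and contralateral 2, Itgam was at 0.044, Hsp90aa1 at -0.052, Cd79b at -0.17 and Trem2 at 0.17. With the length trend removed, Cd79b was at -0.089, Gngt2 at -0.38, Tyrobp at -0.38 and Axl at -0.088. Trem2 was at 0.22 with voom, and Axl at -0.40 on log2(FPKM + 1) and -0.16 with the replicate block. Leaving out single libraries gave -0.36 to 0.017 for Itgam, -11.45 to 2.11 for F13a1, -0.19 to 0.48 for Cd79b, -0.64 to 0.43 for Axl, -9.04 to 0.075 for Otx2 and -0.44 to 0.047 for Trem2. Of 23 list medians, 16 kept their sign in all 18 alternatives, among them the MGnD (0.81 to 1.31), homeostatic (-0.78 to -0.28), mitochondrial (1.69 to 3.48) and ribosomal protein lists (0.37 to 1.71). Medians that turned sign somewhere were those of the Muller glia (-0.21, at 0.05 with the length trend removed), TGF-beta, border-associated macrophage, inflammatory, lipid handling (0.14, at -0.09 without microbead 1 and contralateral 2), phagocytosis and lysosome (0.13, at -0.06 on log2(FPKM + 1)) and rod lists.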

Other observations

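Of 9428 genes with a mean of at least 10 CPM in microbead or contralateral libraries, 54 had no reads in any microbead library and 25 had none in any contralateral library. A floor of 3 reads over a group corresponds to 0.138 CPM in microbead and 0.110 CPM in contralateral libraries, and it covers counting error only.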
